A study of Bos taurus with 40 samples.

Results

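The comparison described here is carbachol against saline in airway smooth muscle that was cyclically stretched throughout the treatment. It rests on 20 labelled samples of the 40 in the series, taken by the drug and stretch state in their titles, which are 10 of the 20 RNA samples. Intact strips of bovine tracheal smooth muscle were kept in physiological salt solution without drug (the saline group) or with 1 µM carbachol. Both groups were oscillated in length by a sine wave of 10% of muscle length at 1 Hz, so cyclic stretch is shared by the groups and is not what differs between them. Each of 5 animals gave 1 strip to each group. The RNA of a strip was hybridised to custom oligonucleotide arrays in both dyes, Cy3 and Cy5, beside the RNA of another strip. Unstretched strips of the same animals, in saline or in 1 µM carbachol, enter the estimate of the spread and 1 further comparison. The tracheae came from a slaughterhouse, and the labels speak of excising the muscle together with adventitia and mucosa in a text that breaks off, so it is not given here how far other layers were removed. The sources used here give no treatment time, age or breed.

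Carbachol is a stable analogue of acetylcholine that activates muscarinic receptors. In airway smooth muscle the M3 receptor couples through Gq to phospholipase C, calcium release and protein kinase C, which drives contraction, and the M2 receptor couples through Gi to inhibition of adenylyl cyclase. Contracted muscle that is stretched at the same time carries more load on its integrins, the receptors that tie the cytoskeleton to the matrix, and both integrins and G protein-coupled receptors can feed the RAF and MAP kinase pathway. The comparison asks what the drug adds to gene expression once the muscle is already moving, as it does during breathing.

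Only part of the array can be read by gene. The platform annotation names 15 spot pairs of 14 genes, and 6 of these pairs, PRKCE, BRAF, ITGA6, ITGA9, ITGA11 and RPL28, had enough values to test. The other 184 of the 190 tested pairs carry no gene name here and no position in the genome. They are called by number, where pair n is made of spots 2n - 1 and 2n. None of the 30 markers listed for smooth muscle, epithelium, fibroblasts, endothelium, leukocytes and cartilage is a named spot, so the labelled tissue was not checked against its markers. In these bulk strips a cell type with fewer cells cannot be told apart from less RNA per cell. Channels of the saline group held 350 to 530 values and channels of the carbachol group 334 to 575, with median intensities of 1285 to 3588 and 1414 to 4041.5.

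The 2 groups never shared an array. Saline strips were on 10 arrays and carbachol strips on 9 others, and 0 arrays held both. The 10 carbachol channels were hybridised beside saline unstretched strips in 6 cases, carbachol unstretched strips in 2, and another carbachol stretched strip in 2, where animals 1 and 3 met. The 10 saline channels faced carbachol unstretched strips in 7 cases and saline unstretched strips in 3. A difference between the groups is therefore a difference between arrays, unless it is carried over through another strip.

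The protein kinase C isoform of the set is PRKCE, the calcium-independent epsilon form that acts downstream of receptors coupled to phospholipase C. Its normalised log2 intensity in saline was 11.74, 10.74, 10.89, 11.29 and 11.30 in animals 1 to 5. In carbachol it was 11.89, 10.75, 11.28, 11.24 and 11.89 in the same order. The groups overlapped, and the higher value was the carbachol one in 4 of 5 animals. The means were 11.19 ± 0.392 and 11.41 ± 0.486 (SD, n = 5), and the paired log2 difference was 0.22 ± 0.14 (SE), a fold of 1.16. It did not pass (limma, adjusted p = 0.826), and its 95% interval ran from -0.08 to 0.51. PRKCE was 1 of 2 members named on the array from a list of 25 muscarinic and G protein signalling genes.

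The other was PRKAR1A, the regulatory subunit that holds protein kinase A inactive until cyclic AMP binds. It had 4 values in saline and 3 in carbachol, but only 2 in saline unstretched strips, and so was outside the fit of all 4 treatments, which asked for 3 in each. Its log2 level in saline was 9.56, 9.94, 10.40 and 10.41 in animals 1, 3, 4 and 5, and in carbachol 10.05, 10.00 and 10.17 in animals 1 to 3. Both animals with a value on each side, 1 and 3, were higher in carbachol. A limma fit of the 2 stretched groups alone gave PRKAR1A a difference of 0.36 ± 0.352 (SE, adjusted p = 0.986). Other fits that could include it gave smaller values. They were 0.25 with at least 2 animals asked for in the stretched groups, 0.22 from Cy5 alone, and 0.06 where 1 dye channel sufficed.

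BRAF, the kinase that passes signals from RAS to MEK and ERK, had the largest difference among the named genes. Its log2 level in saline was 9.80, 11.39, 11.03, 10.89 and 11.33 in animals 1 to 5, and in carbachol 11.39, 11.87, 11.10, 11.02 and 11.17. The saline strip of animal 1 lay below all other values and the carbachol strip of animal 2 above them. The remaining values of the groups overlapped. The per-animal differences were 1.59, 0.48, 0.07, 0.13 and -0.16, with 4 of 5 above 0. Their limma estimate was 0.42 ± 0.211 (SE), a fold of 1.34, with a 95% interval of -0.02 to 0.87 and an adjusted p of 0.569. Averaged over animals 1 to 3 the difference was 0.71, and over animals 4 and 5 it was -0.01. BRAF was the tested member of a list of 14 MAP kinase and stress genes, in which MAP3K5 and PAK3 are also named but had values on 0 and at most 2 arrays.

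The low BRAF value of animal 1 was shared by the strip on the same arrays. Its saline stretched RNA was measured only on arrays 1 and 4, each time beside the carbachol unstretched RNA of that animal, whose BRAF level was 10.13. The carbachol stretched RNA of animal 1 was on arrays 6 and 12, where its partners had 11.10 and 11.36. ITGA11 followed the same pattern, with 9.19 in the saline stretched strip and 9.18 in its array partner. Arrays 1 and 4 held no other RNA, so the part of the arrays in the difference of animal 1 was not tested.

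The integrin alpha subunits were measured for laminin binding (ITGA6), fibrillar collagen binding (ITGA11) and binding of tenascin and other ligands (ITGA9). ITGA6 in saline was 9.60, 10.58, 10.30, 11.21 and 11.47 in animals 1 to 5, and in carbachol 10.40, 10.96, 10.23 and 11.28 in animals 1, 2, 3 and 5. Its groups overlapped fully, with 2 animals higher and 2 lower. The limma difference was 0.23 ± 0.166 (SE, adjusted p = 0.847), and since animal 4 has no carbachol value, this estimate rests on the animal term and not on the plain group means.

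ITGA11 in saline was 9.19, 10.63, 10.29, 10.16 and 10.52, and in carbachol 10.26, 10.64, 10.07, 10.46 and 10.50. The saline strip of animal 1 was again the low one, and its difference of 1.08 compares with -0.22 to 0.30 in the other animals. The limma difference of ITGA11 was 0.23 ± 0.158 (SE, adjusted p = 0.847).

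ITGA9 had group means of 10.81 ± 0.332 in saline and 10.80 ± 0.125 in carbachol (SD, n = 5). Its difference was -0.01 ± 0.13 (SE, adjusted p = 0.98), with a 95% interval of -0.29 to 0.26, so a change by a factor of 2 either way lies outside it. The saline values spread from 10.26 in animal 1 to 11.15 in animal 2, and the carbachol values only from 10.65 to 10.92. Of the 17 genes on the integrin and focal adhesion list 3 were tested, 2 with a positive estimate, and 0 passed. Over all 190 pairs 93 estimates were positive. The median of the 3 was 0.23, against -0.01 over all 190 pairs. Both positive members had their largest difference in animal 1, 0.81 for ITGA6 and 1.08 for ITGA11.

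RPL28, a protein of the large ribosomal subunit, was higher with carbachol in 5 of 5 animals. Its saline levels were 11.25, 11.09, 11.48, 11.23 and 10.84 and its carbachol levels 11.61, 11.27, 11.53, 11.76 and 10.98. The groups overlap because animals differ by more than the drug states within an animal, which differed by 0.36, 0.18, 0.05, 0.52 and 0.14. The limma difference of 0.25 ± 0.115 (SE), a fold of 1.19, had an unadjusted p of 0.0421 and did not pass after adjustment (0.556).

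**Figure D1:**
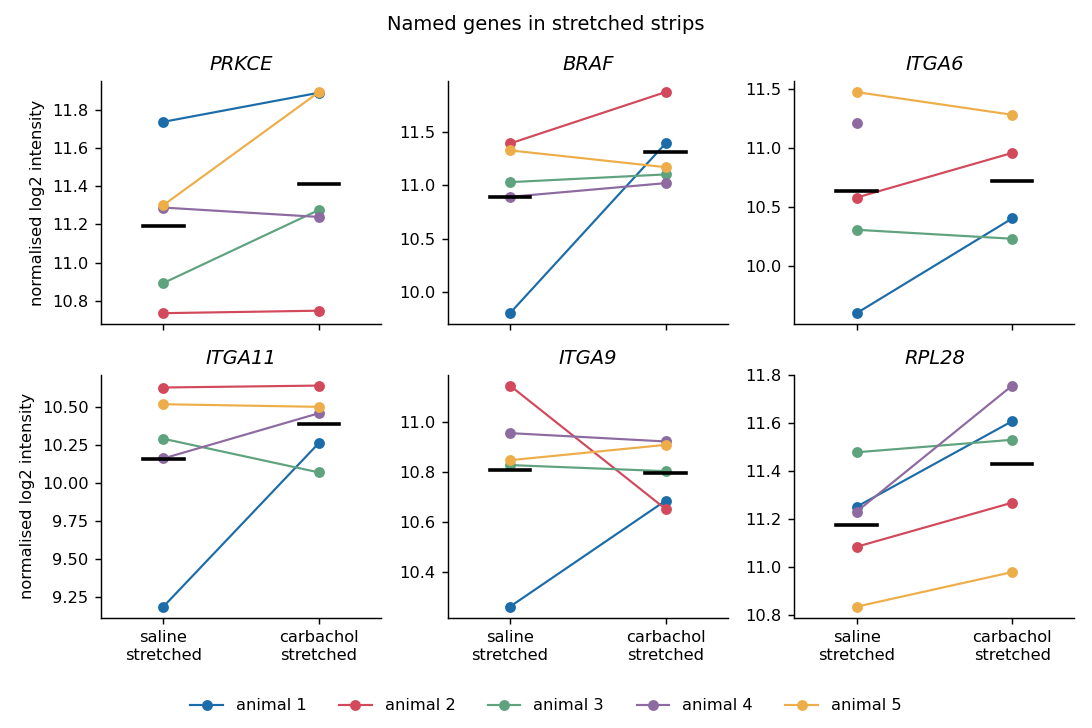
Normalised log2 intensity of the 6 tested named genes in saline stretched and carbachol stretched strips; each line joins the strips of 1 animal and black bars are group means (n = 5, for ITGA6 n = 4 in carbachol, where animal 4 has a saline value only). Lines run upward in all 5 animals for RPL28 and in 4 for BRAF and PRKCE, with the steepest BRAF and ITGA11 lines in animal 1.

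The remaining named genes gave no usable comparison. ACTN3, ANAPC1, ITCH and MAP3K5 had no value in any channel of either group. Both CAV2 pairs, XPO7 and PAK3 had values in at most 2 channels of a group. The cytokine and inflammation list of 9 genes had no named spot on the array.

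Over all 190 tested pairs, carbachol changed none past the threshold in stretched muscle. The adjusted limma p was under 0.05 for 0 pairs (0%), and the smallest was 0.556. At an unadjusted p under 0.05 there were 15 pairs (7.89%), 8 with a higher level in carbachol (4.21%) and 7 with a lower one (3.68%). The estimates centred on 0, with 93 above and 97 below it and a median of -0.01. The middle of the distribution was narrow, since the 5th and 95th percentiles lay at -0.37 and 0.31. The highest was 0.71 and the lowest -0.52, and 0 estimates exceeded 1, a change by a factor of 2.

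The limma intervals give the size of change that the spread between strips could still hide in the tested pairs. They do not cover a bias shared by the arrays of 1 group, nor the pairs with too few values. The median SE was 0.167, and the 95% interval lay wholly between -1 and 1 for 182 pairs (95.8%). It lay wholly between -0.5 and 0.5 for 93. For the 8 others a change by a factor of 2 lies within the interval. They include pair 34, whose level was higher with stretch than without it in 5 of 5 animals in saline.

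**Figure D2:**
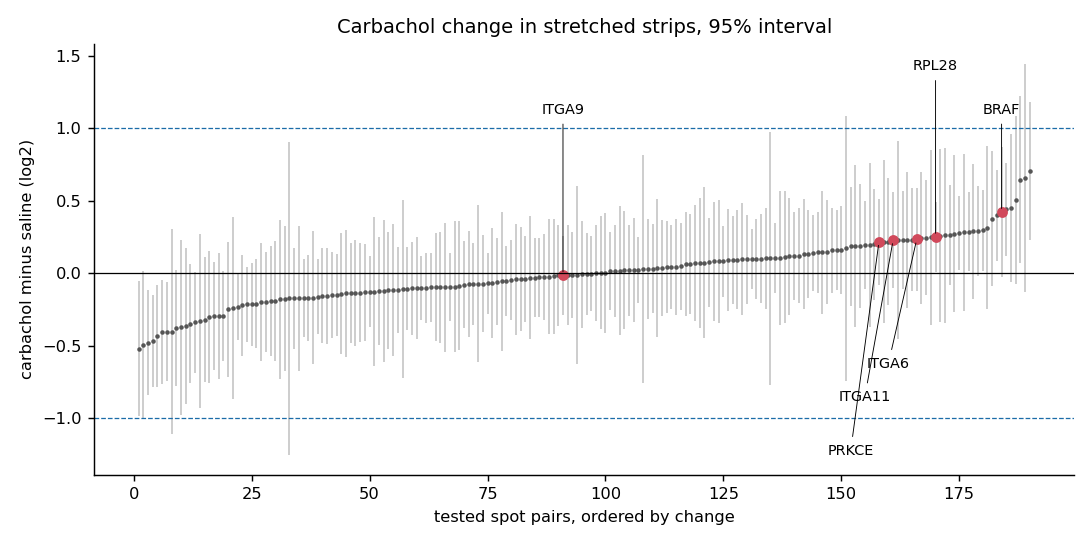
Log2 difference of carbachol from saline in stretched strips for each of the 190 tested spot pairs, ordered by size, with its 95% interval; red points are the named genes and dashed lines mark a change by a factor of 2. Estimates run from -0.52 to 0.71, and the named genes lie between -0.01 (ITGA9) and 0.42 (BRAF).

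Pair 160 had the smallest p. Its log2 level in saline was 9.29, 11.05, 10.82, 10.48 and 10.68 in animals 1 to 5, and in carbachol 11.10, 12.01, 10.81, 11.03 and 10.89. The difference was 0.71 ± 0.227 (SE, unadjusted p = 6.34e-03), the highest of all pairs, and animal 3 showed none. As for BRAF, the saline strip of animal 1 was low, and so was its array partner, at 9.40.

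Pair 54 was lower with carbachol in 5 of 5 animals. Its level in saline was 15.04, 15.52, 15.58, 14.46 and 14.73 and in carbachol 14.56, 15.21, 15.15, 14.14 and 13.94. Carbachol was lower by 0.32 to 0.79 within an animal, and the groups overlapped, since animals differed more among themselves. The difference was -0.47 ± 0.152 (SE, unadjusted p = 6.89e-03), and this was also the 1 pair called when quantile normalization replaced the loess correction. Its raw values reached 60317, near the top of the intensity range.

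Pair 47 was higher with carbachol in 5 of 5 animals, by 0.32, 0.39, 0.57, 0.65 and 0.29, for a difference of 0.44 ± 0.152 (SE, unadjusted p = 9.50e-03). Pair 28, near the top of the intensity range with raw values up to 61872, was also higher in 5 of 5, but unevenly, by 0.06 to 0.41 in animals 1, 3 and 5 and by 1.30 in animals 2 and 4. Pair 374 was lower by 0.36 to 0.37 in 4 animals and by 0.92 in animal 4. Pair 156 had the lowest estimate, -0.52 ± 0.221 (SE), with values from -1.17 in animal 2 to 0.00 in animal 4. Among the 10 pairs with the smallest p, pairs 31, 467 and 491 had estimates of -0.43, -0.40 and -0.40 and pair 5 one of 0.40, each with an adjusted limma p of 0.556. Pair 5 had values on both sides in 3 animals only, and pair 491 in 4. The 5 highest estimates also took in pair 269 (0.66 ± 0.370, SE), pair 279 (0.51 ± 0.274) and pair 190 (0.45 ± 0.239), and the 5 lowest pair 393 (-0.49 ± 0.231). Each of these 4 had its largest value in 1 animal: animal 3 for pair 269 (2.50), animal 1 for pair 190 (1.52), and animal 2 for pairs 279 (1.82) and 393 (-0.97).

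**Figure D3:**
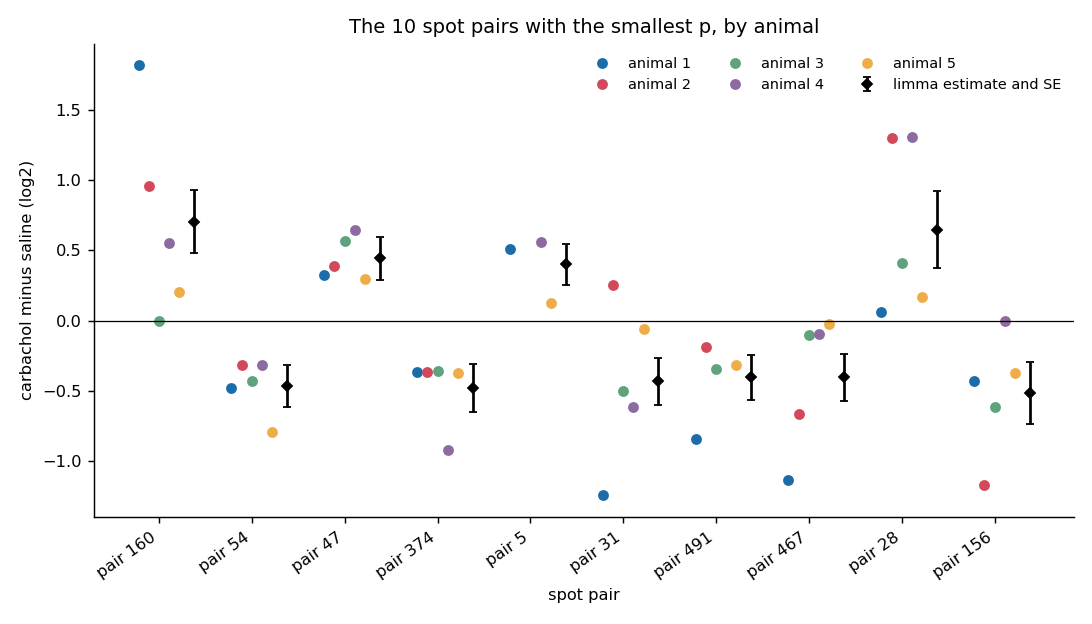
Log2 difference of carbachol from saline in each animal (coloured points) and the limma estimate with its SE (black) for the 10 spot pairs with the smallest p. All points of pair 54 lie below 0 and all of pair 47 above it, whereas pair 160 spans 0.00 to 1.82.

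Pairs with a common direction in every animal were counted. With signs at random, a pair would keep 1 direction in all 5 animals at a rate of 0.0625, both directions together. The counts were not tested against that rate. Of the 118 pairs with a value in all 20 RNA samples, 4 were higher with carbachol in all 5 animals (3.39%) and 7 were lower in all 5 (5.93%). The 4 were RPL28 and pairs 28, 47 and 297. The 7 were pairs 54, 122, 156, 249, 267, 374 and 467. These names were read from the counts after the values were seen.

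Animals differed in how far the values of their strips, which lay on separate arrays, diverged. In animal 1 the difference exceeded 0.5 in size for 86 of 190 pairs (45.3%) and in animal 2 for 64 of 169 (37.9%). In animals 3, 4 and 5 this held for 17 of 181 (9.39%), 27 of 129 (20.9%) and 15 of 164 (9.15%). The SD of the differences over pairs was 0.616 and 0.631 in animals 1 and 2, and 0.349, 0.451 and 0.289 in animals 3 to 5. For animals 2 and 3 a path within arrays, described below, gave the reverse order. Over the 164 pairs with all values its SD was 0.421 in animal 2 and 0.502 in animal 3. With a dye effect removed it was 0.401 and 0.430, and between arrays it was 0.638 and 0.362 for the same pairs. The part of the arrays in these spreads was not tested. The median of the differences between arrays was 0.16, 0.01, -0.07, 0.00 and -0.06 in animals 1 to 5 after scaling. Scaling aligns the arrays on their medians and so holds these values near 0.

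In the intensities as deposited these medians were 0.26, -0.34, 0.02, -0.90 and 0.32. Carbachol strips were thus the brighter ones in 3 animals and the dimmer ones in 2, with a mean of -0.13 ± 0.503 (SD, n = 5; exact sign-flip permutation test, two-sided p = 0.688, where the smallest possible is 0.0625). A drug effect on all spots alike would be removed by the scaling and was not measurable within these unscaled spreads.

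**Figure D4:**
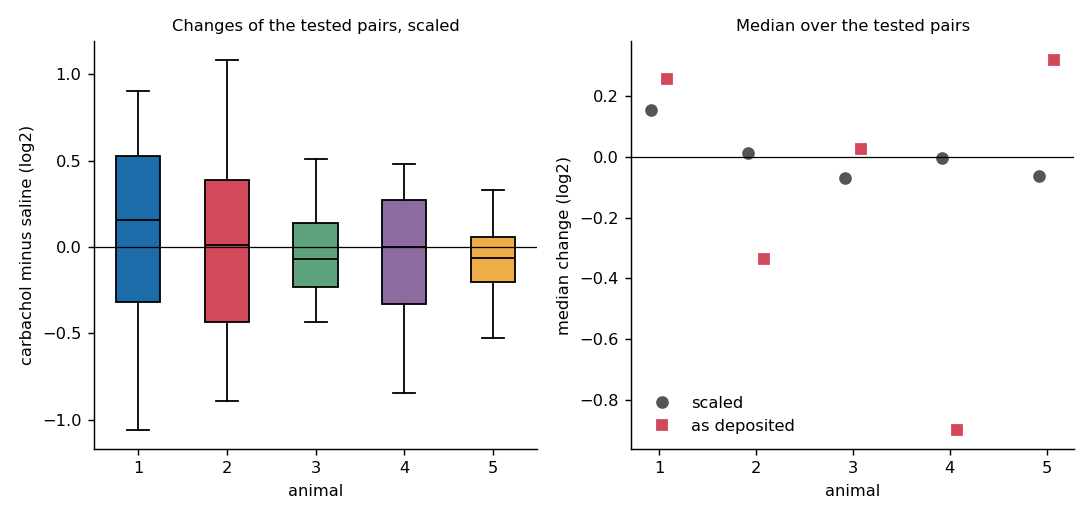
Left, log2 differences of carbachol from saline over the tested pairs in each animal after scaling (box, quartiles and median; whiskers, 5th to 95th percentile); right, their median per animal after scaling (circles) and in the values as deposited (squares). Boxes are widest in animals 1 and 2, and unscaled medians run from -0.90 to 0.32 with no common sign.

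Pairs called in the other comparisons of these strips, for stretch or for both treatments, were examined for an added effect of the drug. Pairs 28 and 47, described above, were among them, with estimates of 0.65 and 0.44 and a higher level with carbachol in every animal. Pairs 156 and 491 had been called there for carbachol. Those calls rest in part on the same strips. Pairs 34, 18, 478 and 4 follow. Pair 34 had a log2 level of 15.36, 14.63, 15.57, 15.00 and 15.45 in saline stretched strips of animals 1 to 5, and of 13.998, 16.10, 15.17, 14.56 and 15.32 with carbachol. Animals differed in sign, with -1.36 in animal 1 and 1.47 in animal 2, and the estimate was -0.17 ± 0.512 (SE). Pair 18 ranged from -1.23 in animal 1 to 1.67 in animal 2, with an estimate of 0.10 ± 0.413, and pair 478 from below -1 in animal 1 to 1.47 in animal 2, with 0.03 ± 0.372. Pair 4 had -0.81 and 1.02 in these animals and an estimate of 0.26 ± 0.279. In these 4 pairs animal 1 was lower and animal 2 higher with carbachol. The SD of the difference over animals was 0.84 to 1.11 in these pairs, and pairs outside the set, such as pair 269 (1.24), spread as far.

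Whether the carbachol difference depended on stretch was tested as an interaction with the unstretched strips. No pair passed (0 of 190, 0%, limma), and 9 had an unadjusted p under 0.05 (4.74%). This contrast sets carbachol stretched and saline unstretched strips against the other groups, and array sharing ran the same way: 6 of 10 carbachol stretched channels lay beside saline unstretched strips and 7 of 10 saline stretched channels beside carbachol unstretched ones. With the array as a term, 1 pair passed, pair 269, at 1.00 ± 0.209 (SE, limma adjusted p = 0.0472). Its level in animal 3 was 12.38 in the carbachol stretched and 12.30 in the saline unstretched strip, and 9.89 in the 2 others. Each level is the mean of 2 labellings. From Cy5 alone the carbachol difference of pair 269 in stretched strips was -0.0078. The Cy5 labelling of that carbachol strip was on array 6, and its Cy3 labelling on array 3 beside the saline unstretched strip. The 2 high strips shared an array and both enter with a plus sign. The part of that array in the interaction was not tested. ITGA11 was the named gene with the smallest interaction p, with a carbachol difference of 0.23 in stretched and -0.35 in unstretched strips. The interaction was 0.58 ± 0.223 (SE, adjusted p = 0.696). For BRAF the values were 0.42 and -0.15, with an interaction of 0.57 ± 0.298 (SE, adjusted p = 0.819). For PRKCE they were 0.22 and 0.14, with an interaction interval of -0.34 to 0.50. Pair 160 had the smallest interaction p of all pairs, with differences of 0.71 and -0.45 and an interaction of 1.15 ± 0.320 (SE, adjusted p = 0.423). In animal 1 the strips that enter with a minus sign, saline stretched and carbachol unstretched, were both low on arrays 1 and 4 for ITGA11, BRAF and pair 160. Without animal 1 their interactions were 0.27 ± 0.178, 0.14 ± 0.240 and 0.74 ± 0.284 (SE). With the array as a term they were 0.61 ± 0.240, 0.63 ± 0.313 and 1.11 ± 0.321.

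Animals 1 to 3 and animals 4 and 5 were on separate series of arrays, 1 to 12 and 13 to 20. The carbachol difference was therefore also compared between these sets. No pair passed (0 of 118, 0%, limma), with 6 at an unadjusted p under 0.05 (5.08%). Means in animals 1 to 3 and in animals 4 and 5 were -0.41 and -0.55 for pair 54, 0.43 and 0.47 for pair 47, and 0.20 and 0.33 for RPL28, with the same sign in both sets. For pair 160 they were 0.92 and 0.38, and for PRKCE 0.18 and 0.27.

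Because the groups meet only through other strips, the channels were also fitted with array and RNA sample as random terms, in models chosen after the results above were seen. Where the shares of variance of these terms were set once for all pairs, the array took 78% of the spread, the RNA sample 4% and the single labelling 18%. The median SE was then 0.125, and 11 of 190 pairs passed (5.79%), 5 higher and 6 lower with carbachol. BRAF was among them, with a log2 difference of 0.54 ± 0.153 (SE), a fold of 1.45 and an adjusted p of 0.0342. When the variances were instead estimated for each pair separately, 0 of 190 passed, the smallest adjusted p was 0.0835, and 32 pairs lay under 0.05 before adjustment. BRAF was then at 0.52 ± 0.135 (SE, adjusted p = 0.0835).

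The 10 unnamed pairs of that model included pair 54, at -0.59 ± 0.118 (SE, adjusted p = 2.72e-03), and pair 267, at -0.67 ± 0.151 (adjusted p = 7.45e-03). Pairs 249 (-0.31), 75 (-0.44), 63 (-0.57) and 36 (-0.49) were also lower. Pairs 160 (0.66), 288 (0.61), 47 (0.38) and 462 (0.31) were higher. The calls depended on single animals. Without animal 2 only pair 54 passed, without animal 5 pairs 54 and 267, and without animal 4 pairs 36, 54, 267 and 288. Without animal 1 there were 11 calls, of which 10 were among the pairs called with all animals. Without animal 3 there were 9, of which 5 were among them. BRAF kept its call without animals 1 and 3 (adjusted p = 0.0315 and 0.0174) and lost it without animals 2, 4 and 5 (0.345, 0.118 and 0.0639). Its estimate lay between 0.465 and 0.615 whichever animal was left out. The SE of BRAF ran from 0.139 without animal 1 to 0.205 without animal 2.

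**Figure D5:**
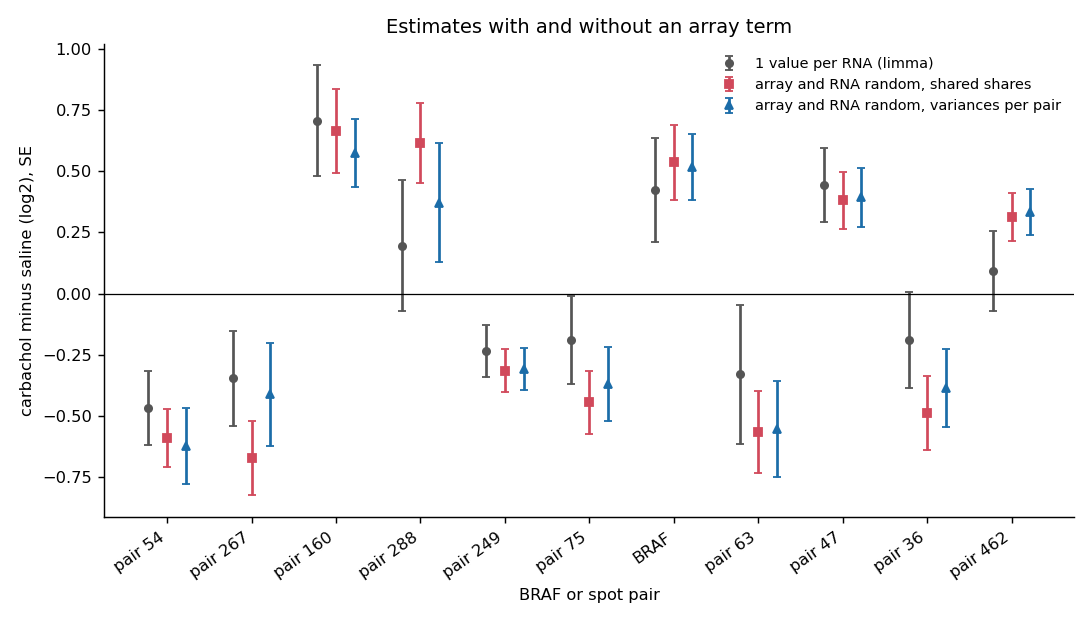
Log2 difference of carbachol from saline with its SE for BRAF and the 10 unnamed spot pairs called by the model with shared variance shares: from 1 value per RNA (circles), from that model (squares), and with variances estimated per pair (triangles). The 3 estimates share their sign in all 11, and the first lies nearest to 0 for 9 of them.

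In animals 2 and 3 the difference could be read within arrays, because saline unstretched RNA of the same animal shared 1 array with the carbachol strip and 1 with the saline strip. BRAF was higher with carbachol by 0.46 and 0.43 along this path, and by 0.64 and 0.61 after removing a dye effect taken from 5 dye-swapped pairs of arrays. The difference between arrays had been 0.48 and 0.07. ITGA9 was at -0.33 and -0.43, or -0.30 and -0.40 without the dye effect, and RPL28 at 0.25 and 0.28, or 0.00 and 0.03. ITGA11 was at -0.48 and -0.06, or -0.21 and 0.21, where the estimate from all animals was 0.23. ITGA6 was at 0.08 and -0.46, or 0.37 and -0.18. Pair 160, with the highest estimate between arrays, was at 0.02 and 0.02, or 0.64 and 0.64 without the dye effect. For PRKCE the path gave 0.48 and 1.01, and 0.22 and 0.75 without the dye effect. Pair 54 was at -0.05 and -0.56, and at -0.33 and -0.84 without it. On these arrays the carbachol strip was in Cy3 and the saline strip in Cy5 in both animals. A dye effect of a pair therefore enters both animals with the same sign, and the same amount was removed from both. Likeness of the 2 animals is thus not independent of the dye. Among the dye-swapped pairs only arrays 1 and 4 were from the series of animals 1 to 3, to which the path belongs. The rest of the removed dye effect came from the arrays of animals 4 and 5. The path values are single labellings of 2 animals and carry no test.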

How the data were processed

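Members and lists were chosen with earlier results of these data known. The authors deposited 1 linear spot intensity per dye channel, unscaled; per the labels' protocols the RNA was amplified before dye coupling, and control transcripts were added. The sources used here name no scanner, image software, background treatment or rule for blanks; 57.4% of cells were blank. Neighbouring odd and even spots are duplicates (r = 0.975). All 40 columns were matched to samples.

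Intensities were taken to log2. A loess curve (span 0.4, 4 iterations) was taken off the log ratios of every array, and arrays were aligned by their median deviation, computed on the 193 spots with no blank. Duplicates were averaged, then the Cy3 and Cy5 values of an RNA. Unscaled columns required this step. Within an RNA the labellings differed by a median of 0.15 to 0.66 on the log2 scale. A pair was tested where each of the 4 treatments had values from at least 3 animals.

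Changes were tested across all 190 pairs with limma 3.58.1 in R 4.3.3 on all 20 RNA samples, with the animal as a block, since the study's design gave every treatment to muscle of each animal. Deviations of stretched strips from their group means correlated by 0.44 on average within animals (-0.09 to 0.76). Between different animals the average was -0.11, with a wider range (-0.83 to 0.84). Centring on group means of the same animals ties this average to the within-animal one with the opposite sign. It is therefore no separate check of the block. Strips of an animal also lay in the same series of arrays, so the within-animal value does not separate animal from series. P-values were adjusted by Benjamini-Hochberg (threshold 0.05, two-sided). Models with array terms used statmod 1.5.0 and lmerTest 3.1.3, and scripts were tested on simulated data. Gene names come from the platform annotation, which can be old; the gene numbers of all 14 genes are in RefSeq's current bovine table. Text names every gene-labelled pair, the 10 smallest p, the 5 highest and 5 lowest changes, and pairs called in other comparisons. P-values of the limma fit measure the spread between strips across animals, arrays included, and those of the random-term models rest mainly on arrays and labellings.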

Additional observations from a re-analysis of the deposited data

Results flagged for a closer look

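In 6 of 67 groups of 4 or 5 values, 1 strip lay farther from the others than Dixon's criterion allows, where chance flags about 1 in 20 groups. That rate does not apply as it stands, because the 5 pairs concerned were described for a small p or an extreme difference. The level of pair 28 in saline was lowest in animal 2, at 14.03, and in carbachol highest in animal 4, at 16.38, which are the animals with the 2 largest differences of that pair. Pair 160 was highest with carbachol in animal 2, at 12.01. Pair 190 was lowest in saline in animal 1, at 9.36, with 9.55 in the carbachol unstretched strip on the same arrays. The carbachol difference of pair 269 was 2.50 in animal 3, against -0.09 to 0.29 in the other animals with a value. Its level there was 12.38, beside 12.30 in the saline unstretched strip of animal 3, which shared an array with its Cy3 labelling. From Cy5 alone, which for this strip was on another array, the estimate of pair 269 was -0.0078. The difference of pair 374 was -0.92 in animal 4. No named gene was among the 6, and no cause was tested.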

How the results depend on the processing

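The count of 0 calls for carbachol in stretched strips stayed at 0 in 23 of 26 alternatives. Quantile normalization called 1 (pair 54), channels with the array as a random block, which count both labellings of an RNA separately, called 16 (8 higher), and the shared-shares model added later called 11. Without the replicate block the count was 0, with 2 under 0.05 before adjustment, and the block changed no call. Leaving out each animal gave 0 throughout. Unscaled values moved the median difference to -0.10.

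The interaction with stretch gave 1 call with the array as a term and 1 value per RNA (pair 269) and 5 in animals 4 and 5 alone (pairs 18, 34, 451, 463 and 495). The difference between array sets gave 0 to 4 calls when 1 animal was left out, the 4 without animal 3 (pairs 99, 155, 291 and 314). The cause was not tested.

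Uncalled estimates changed sign in 25 cases. Cy5 alone gave -0.027 for PRKCE, 0.20 for pair 34, -0.0078 for pair 269 and -0.12 for pair 478, and Cy3 alone 0.043 for ITGA9. Animals 4 and 5 alone gave -0.014 for BRAF, 0.014 for ITGA9, -0.28 for pair 18 and -0.36 for pair 478. Pair 478 had -0.025 under quantile normalization, -0.073 unscaled, -0.026 with the array as a term and -0.050 from even-numbered spots. Pair 18 had -0.017 unscaled and -0.0065 with the array as a term. ITGA9 had 0.043 from odd-numbered spots. Pair 34 had 0.62 with the array as a random block and 0.55 with shared shares. Leaving out 1 animal gave -0.29 to 0.44 for pair 18, -0.58 to 0.12 for pair 34, -0.33 to 0.30 for pair 478 and -0.12 to 0.11 for ITGA9. Signal over background is unknown here, and 5 animals limit the precision.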

Other observations

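Spot pairs differed in how often they gave a value in the 2 groups, which the tests above do not use. Of 520 pairs, 118 had a value in all 20 channels and 102 in none. Pair 84 was measured in 7 carbachol and 2 saline channels, and pair 273 in 1 carbachol and 6 saline channels, the only pairs with a gap of 5 or more. A blank is shared by both channels of an array, so these counts also reflect the strips hybridised beside them, and no test was run.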
